A study of Rattus norvegicus with 34 samples.

Results

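The 4 genes described here are *Aif1*, *Itgam*, *Cd74*, and *Lgals3*, which are used as markers of microglia and macrophages, the phagocytes of the retina. They were chosen by name from the 48 genes on a TaqMan microfluidic card, of which 44 are specific genes and 4 are reference genes. The question was whether the 4 markers changed together between groups of rats, as they would if all of them followed 1 quantity, the amount of phagocyte RNA in the retina. In bulk RNA of a whole retina, fewer phagocytes and less marker RNA per phagocyte cannot be told apart.

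Retinae of 23 rats were analyzed at 9 weeks of age. SD rats (n = 6) are uninjected Sprague Dawley rats. PKD rats (n = 6) are uninjected males of the strain PKD2(HA-1/703-CMV-247), homozygous for a truncated polycystin-2 transgene under the CMV promoter. PKD + Clodronate (n = 5) and PKD + Controlliposomes (n = 6) rats carry the same transgene and received 3 µl of clodronate-coated or control liposomes into the vitreous at 4 and at 8 weeks of age. Clodronate is a bisphosphonate that kills cells which take up the liposomes. The PKD and SD rats had no injection, so the effects of the injection, of the liposomes, and of the drug cannot be told apart against them. The control liposome group is the only one that differs from the clodronate group in the drug alone. PBS-injected PKD rats and clodronate-injected SD rats belong to the study and were not analysed here.

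Microglia are the resident macrophages of the retina. In the healthy retina they are ramified cells of the plexiform layers, and after injury they retract their processes, migrate and take up debris. *Aif1* encodes Iba1, a calcium- and actin-binding protein with a part in membrane ruffling, and is the usual stain for microglia. *Itgam* encodes CD11b, the alpha chain of complement receptor 3, which binds complement-tagged material and is also found on neutrophils and monocytes. *Cd74* encodes the invariant chain of MHC class II, which guides antigen presentation and also serves as a receptor for macrophage migration inhibitory factor. *Lgals3* encodes galectin-3, a sugar-binding lectin that is raised in phagocytes engulfing debris and can also be made by other cells, Müller glia among them.

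The upstream sequences of 2 of the 4 genes are shown, of *Itgam*, which rose in PKD rats below, and of *Cd74*, which did not pass the test there. They are the bases before the outermost annotated gene start in RefSeq (build GRCr8), with a match to a searched motif in capitals. *Itgam* lies at chr1:192089342-192089495 on the plus strand, and *Cd74* at chr18:56526956-56527070 on the plus strand.
Itgam: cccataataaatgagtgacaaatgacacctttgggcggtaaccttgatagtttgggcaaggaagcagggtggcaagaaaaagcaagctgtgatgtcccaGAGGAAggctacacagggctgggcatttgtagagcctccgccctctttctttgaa
Cd74: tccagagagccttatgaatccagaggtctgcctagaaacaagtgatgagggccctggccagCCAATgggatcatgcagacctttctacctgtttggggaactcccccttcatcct
GAGGAA, the core of sites bound by the myeloid factor PU.1, was found once in the *Itgam* window, starting at position -55 relative to the gene start. The letters were searched on both strands, and 15.0% of 33469 promoter windows of that length hold them. Such windows are the first bases of each promoter entry and were not aligned to the start of their own gene. CCAAT, a general promoter element that does not overlap GAGGAA, was found once in the *Cd74* window at position -54, and 16.5% of windows of that length hold it. CCAAT was absent from the *Itgam* window and GAGGAA from the *Cd74* window. These matches describe the letters and were set against no measurement. *Aif1* and *Lgals3* have no sequence here.

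All 4 markers had a Cq, the PCR cycle at which the signal crosses its threshold, in each of the 23 rats, which gives 92 values with 0 missing. The Cq ranged from 23.8 to 26.3 for *Aif1*, from 24.1 to 26.6 for *Itgam*, from 20.1 to 22.5 for *Cd74*, and from 19.8 to 23.4 for *Lgals3*. A lower Cq means more RNA, but levels are not compared between genes, since every assay amplifies with its own efficiency. The Cq of each marker was subtracted from the average of the reference wells, which are *Ywhaz*, *Mrpl19*, *B2m*, and 18S. The result is called expression, on a log2 scale on which the SD rats average 0. On this scale a difference of 1 is a doubling at full efficiency. There was 1 well per gene and rat, so the error is the spread between rats. *B2m*, which encodes the light chain of MHC class I, had a mean Cq of 17.9 in SD rats and 17.5 in uninjected PKD rats, and of 17.2 in either liposome group. The results for the markers were also computed without *B2m* among the reference genes, and are given where a call or a sign changed. Why the Cq of the reference genes differed between groups was not tested. SD rat 3 had the highest *Itgam*, *Cd74*, and *Lgals3* expression of its group (0.67, 1.19, and 1.15), and results against SD rats are also given without it.

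*Aif1* expression in SD rats ranged from -0.40 to 0.52 with a median of -0.072, and in PKD rats from -0.43 to 0.59 with a median of 0.18. In clodronate-treated PKD rats the 5 values were -0.30, 0.00089, -0.98, 0.30, and -0.15. In control liposome-treated PKD rats they ranged from 0.41 to 0.99 with a median of 0.81. The first 3 groups overlapped broadly, while the lowest control liposome-treated rat was above every clodronate-treated rat. The order of the means was control liposomes (0.77 ± 0.213, SD, n = 6), PKD (0.12 ± 0.371, n = 6), SD (0 ± 0.382, n = 6), and clodronate (-0.22 ± 0.477, n = 5). None of the 3 steps between neighbors in that order passed the threshold.

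*Itgam* expression in SD rats ranged from -0.53 to 0.67 with a median of -0.037. In PKD rats it ranged from 0.56 to 1.06 with a median of 0.83, and only SD rat 3 reached into that range. The clodronate-treated rats had 0.46, 0.93, 0.85, 0.63, and 0.61, within or just below the range of the untreated PKD rats. The control liposome-treated rats ranged from 1.19 to 1.91 with a median of 1.52, and all 6 were above every rat of the other groups. The order of the means was control liposomes (1.50 ± 0.256, SD, n = 6), PKD (0.83 ± 0.166, n = 6), clodronate (0.70 ± 0.191, n = 5), and SD (0 ± 0.491, n = 6). Of the steps between neighbors, only the one from clodronate-treated to SD rats passed the threshold.

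*Cd74* expression was spread most widely in SD rats, from -1.65 to 1.19 with a median of 0.15. The PKD rats lay close together, from -0.48 to 0.30 with a median of -0.12. The clodronate-treated rats had -0.62, 0.96, 0.66, 1.03, and 0.13, so that 1 rat was below and 3 were above every untreated PKD rat. The control liposome-treated rats ranged from -0.56 to 1.31 with a median of 0.22. All 4 groups overlapped, and the means were 0.43 ± 0.688 (SD, n = 5) with clodronate, 0.26 ± 0.623 (n = 6) with control liposomes, 0 ± 1.01 (n = 6) in SD, and -0.11 ± 0.262 (n = 6) in PKD rats. No neighbors in that order passed the threshold.

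*Lgals3* expression in SD rats ranged from -0.83 to 1.15 with a median of -0.092, and in PKD rats from 0.017 to 1.74 with a median of 0.92. In clodronate-treated rats it was 1.38, 2.20, 1.89, 1.47, and 1.59, so that every one of these rats was above every SD rat. The control liposome-treated rats ranged from 0.68 to 2.07 with a median of 1.49, which overlapped both other PKD groups. The order of the means was clodronate (1.71 ± 0.336, SD, n = 5), control liposomes (1.36 ± 0.505, n = 6), PKD (0.93 ± 0.588, n = 6), and SD (0 ± 0.738, n = 6). Here the clodronate-treated group stood at the top, where it was at the bottom for *Aif1*, and of the neighbors in this order only PKD and SD passed the threshold.

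**Figure D1:**
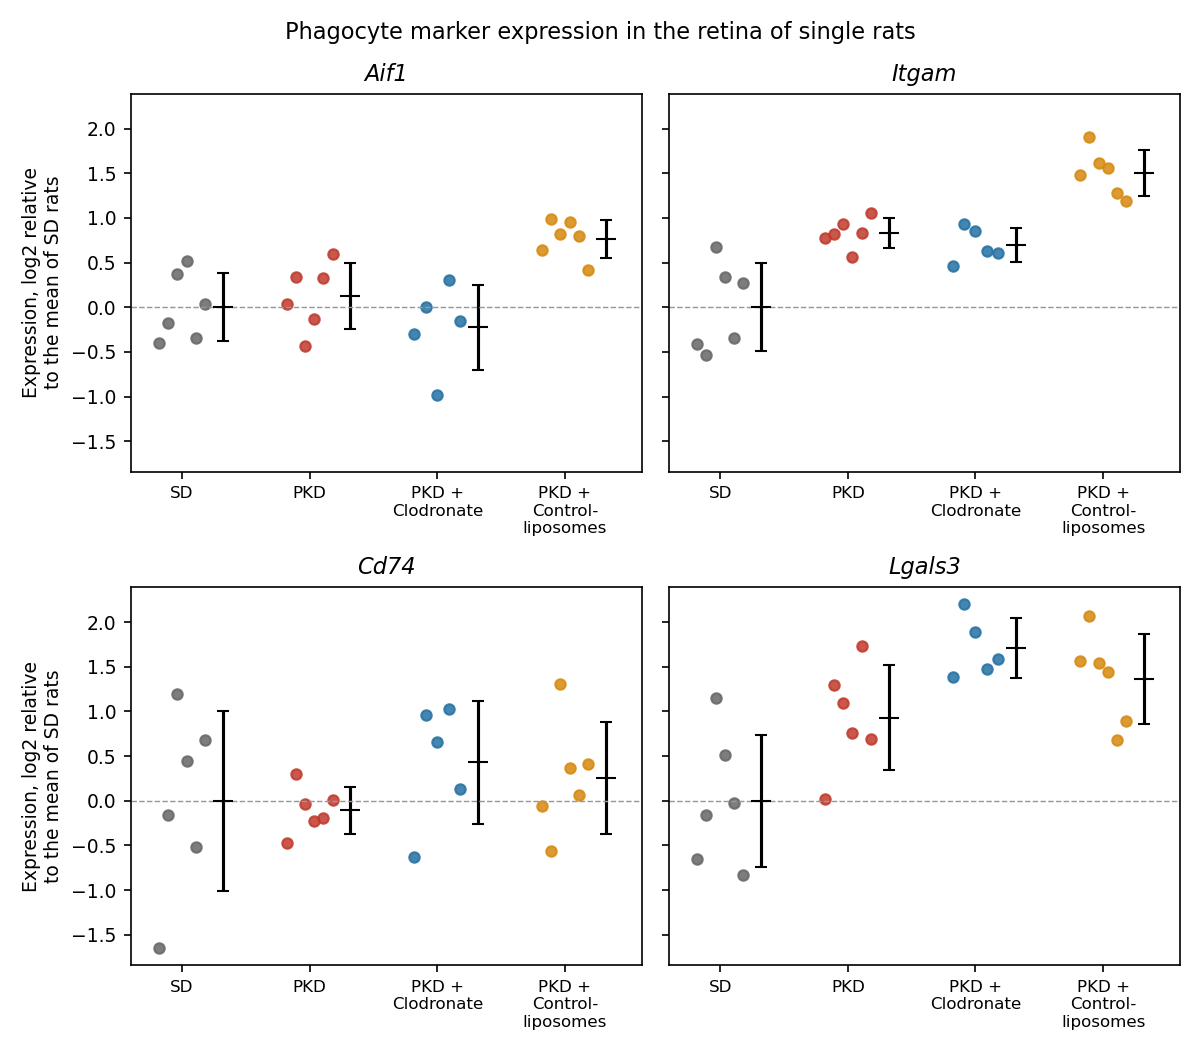
Expression of *Aif1*, *Itgam*, *Cd74*, and *Lgals3* in single rats (points) by group, in log2 units with the SD rats averaging 0, with the mean and SD of each group as bars. Control liposome-treated rats are highest for *Aif1* (mean 0.77) and *Itgam* (1.50), clodronate-treated rats have the highest mean for *Lgals3* (1.71), and the *Cd74* groups overlap.

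The first comparison asked which markers differ between the transgenic and the wild-type retina. *Itgam* and *Lgals3* rose in PKD rats compared to SD rats, while *Aif1* and *Cd74* did not pass the test. Of the 4 markers 2 passed an adjusted p of 0.05, beside 36.6% of the 41 genes tested on the card (34.1% higher in PKD rats), so the share among the markers is near that of the card. *Itgam* was higher by 0.83 on the log2 scale, or 1.78-fold (limma, standard error 0.214, 95% interval 0.39 to 1.27, adjusted p = 0.00275; exact permutation test p = 0.00433 before adjustment), and 6 of 6 PKD rats were above the SD mean. *Lgals3* was higher by 0.93, or 1.91-fold (limma, standard error 0.322, 95% interval 0.27 to 1.59, adjusted p = 0.0215), with an adjusted p of 0.0940 in exact permutation tests. The interval for *Aif1* was -0.36 to 0.61 (limma, adjusted p = 0.777) and that for *Cd74* -0.89 to 0.68 (limma, adjusted p = 0.900). For 0 of the 4 markers the PKD and SD rats were fully apart, beside 14.6% of the 41 genes.

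The *Lgals3* difference between PKD and SD rats ended above the threshold when SD rat 1 (limma adjusted p = 0.0593), SD rat 6 (0.0696), PKD rat 2 (0.0531), or PKD rat 5 (0.0705) was left out. Without SD rat 3 the log2 differences were 0.96 for *Itgam*, 1.16 for *Lgals3*, 0.20 for *Aif1*, and 0.13 for *Cd74*, whose sign turned, and the same 2 markers passed (limma adjusted p = 0.000248 for *Itgam* and 0.00265 for *Lgals3*). The sign of *Cd74* also turned without SD rat 6 (0.031). When the mean of the specific genes served as normalizer, all differences between PKD and SD rats shifted by -0.82, the change of that mean, where the median log2 difference of the 41 genes was 0.44. On that scale *Itgam* changed by 0.0052 (limma, adjusted p = 0.972) and *Lgals3* by 0.11 (0.729), while *Aif1* turned to -0.70 (0.0106) and *Cd74* was at -0.93 (0.00760). Of the 41 genes 23 passed there in either direction, so such calls were not particular to the markers. A gene that rises by less than that mean lies below 0 by construction.

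The drug itself is addressed by the comparison of control liposome-treated with clodronate-treated PKD rats. *Aif1* and *Itgam* were higher with control liposomes, and no other gene of the card passed, so 2 of 4 markers were called beside 4.88% of the 41 genes tested. *Aif1* was higher by 0.99, or 1.99-fold (limma, standard error 0.247, 95% interval 0.48 to 1.50, adjusted p = 0.0194). *Itgam* was higher by 0.81, or 1.75-fold (limma, standard error 0.224, 95% interval 0.35 to 1.27, adjusted p = 0.0278). Both genes had all 6 control liposome-treated rats above all 5 clodronate-treated rats, which held for 4.88% of the 41 genes (exact permutation test p = 0.00433, the smallest that 5 rats against 6 allow). *Cd74* differed by -0.17 (limma, 95% interval -0.996 to 0.65, adjusted p = 0.871) and *Lgals3* by -0.34 (limma, 95% interval -1.04 to 0.35, adjusted p = 0.600).

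These calls are close to the threshold. Both were lost without *B2m* among the reference genes (limma adjusted p = 0.0796 for *Aif1* and 0.204 for *Itgam*), although the log2 differences were then 0.97 and 0.78, and in exact permutation tests the adjusted p was 0.0887 for both. Without *Mrpl19* the *Itgam* call was lost (limma adjusted p = 0.0870). Leaving out clodronate rat 1 (limma adjusted p = 0.0558 and 0.100), clodronate rat 3 (0.0647 and 0.0647), control liposome rat 2 (0.0589 and 0.101), or control liposome rat 4 (0.0538 and 0.0569) ended the calls of *Aif1* and *Itgam*. Leaving out clodronate rat 5 (limma adjusted p = 0.0780), control liposome rat 1 (0.0509), or control liposome rat 3 (0.0549) ended that of *Itgam* alone. The log2 difference itself remained between 0.80 and 1.12 for *Aif1* and between 0.73 and 0.87 for *Itgam* when any 1 rat was left out.

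Compared to uninjected PKD rats, the clodronate-treated rats had 0 of 4 markers past the threshold in limma, beside 0% of the 41 genes. At an unadjusted p of 0.05, 1 marker and 5 of the 41 genes passed, and exact permutation tests with adjustment gave 0 markers. *Lgals3* was that marker, with a log2 difference of 0.78 (limma, 95% interval 0.08 to 1.47, adjusted p = 0.391; exact permutation test p = 0.0260 before adjustment). The intervals reached from -0.86 to 0.16 for *Aif1*, from -0.59 to 0.33 for *Itgam*, and from -0.29 to 1.36 for *Cd74*. A fall of *Itgam* by more than 0.59 on the log2 scale thus lies outside its 95% interval. None of the 4 markers had groups that were fully apart, beside 2.44% of the 41 genes.

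The control liposome-treated rats also had 0 of 4 markers past the threshold against uninjected PKD rats, beside 2.44% of the 41 genes. Before adjustment, 2 markers and 7 of the 41 genes had a limma p under 0.05. These were *Itgam*, with a log2 difference of 0.67 (limma, standard error 0.214, adjusted p = 0.0844; exact permutation test p = 0.00216 before adjustment), and *Aif1*, with 0.65 (limma, standard error 0.236, adjusted p = 0.153; exact permutation test p = 0.00433 before adjustment). In exact permutation tests adjusted over the 41 genes both passed, with values of 0.0296 for *Itgam* and 0.0444 for *Aif1*, beside 9.76% of the 41 genes. *Itgam* was also past the threshold in 6 other alternatives, such as a limma fit of these 2 groups alone (adjusted p = 0.0144, and 0.0415 for *Aif1*). All 6 control liposome-treated rats were above all 6 PKD rats for *Itgam*, which held for 7.32% of the 41 genes. *Cd74* differed by 0.36 (limma, adjusted p = 0.576) and *Lgals3* by 0.43 (limma, adjusted p = 0.460).

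**Figure D2:**
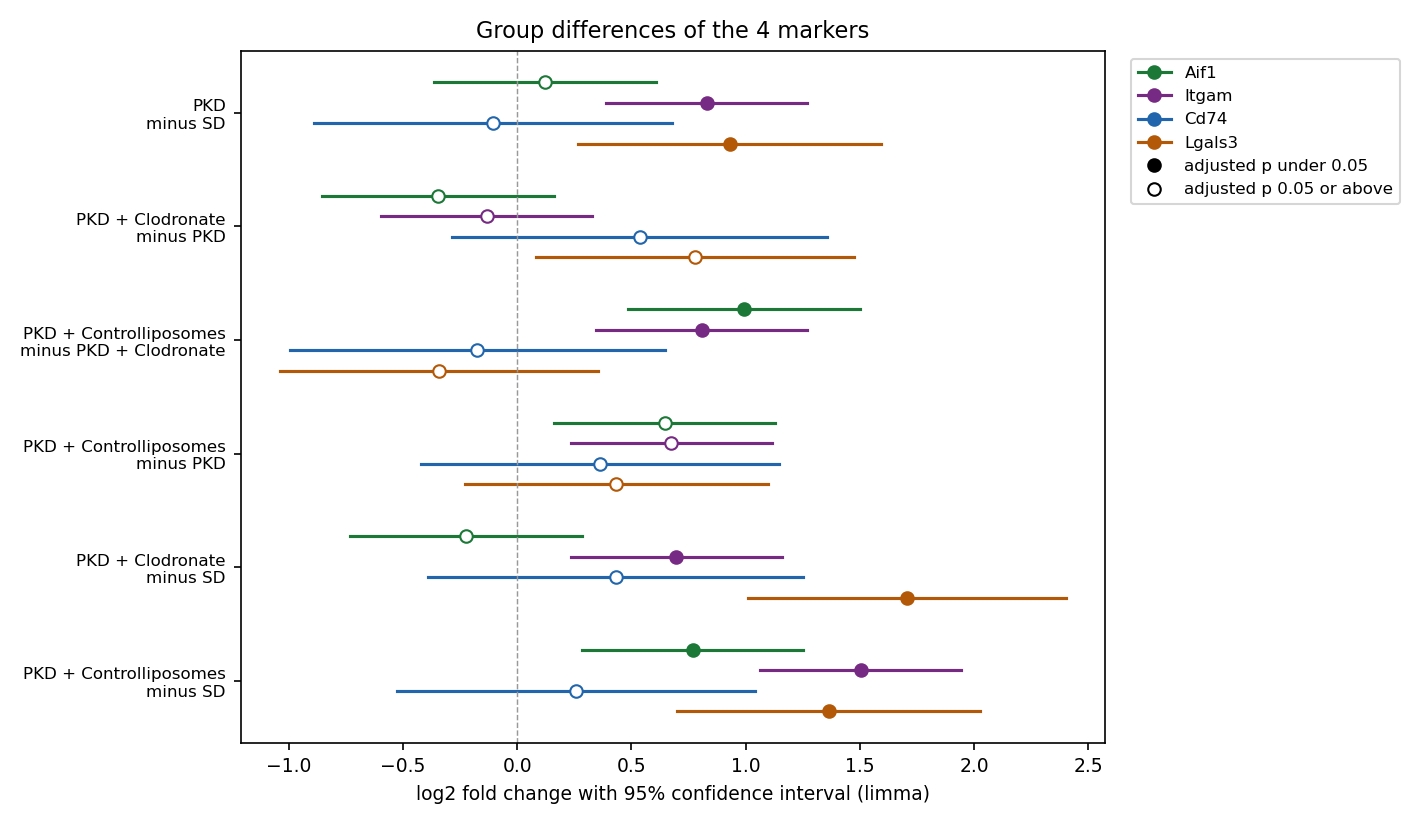
Log2 fold change of each marker (point, limma) with its 95% confidence interval (line) in 6 comparisons, with filled points for an adjusted p under 0.05 over 41 genes. *Aif1* and *Itgam* shift to the right with control liposomes, while *Lgals3* lies at 0.78 and 1.71 for clodronate-treated rats against PKD and SD rats. Of the filled points, *Aif1* with control liposomes and *Itgam* with clodronate against SD rats turn below 0 with the mean of the specific genes as normalizer.

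Against SD rats, both liposome groups had higher *Itgam* and *Lgals3*, and *Aif1* rose in the control liposome group. These comparisons share the SD rats with each other and with the PKD comparison. In clodronate-treated rats 2 of 4 markers passed, beside 51.2% of the 41 genes (46.3% higher). *Lgals3* was higher by 1.71, or 3.26-fold (limma, standard error 0.338, adjusted p = 0.000194), with the groups fully apart, as for 22% of the 41 genes. *Itgam* was higher by 0.70 (limma, standard error 0.224, adjusted p = 0.0112), which was lost in a fit of these 2 groups alone (limma, adjusted p = 0.0681) and turned to -0.19 with the specific genes as normalizer. *Aif1* was at -0.22 (limma, adjusted p = 0.402), and at 0.062 without *B2m*. Without SD rat 3, *Lgals3* was higher by 1.94 and *Itgam* by 0.83, and both passed.

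In control liposome-treated rats 3 of 4 markers passed against SD rats, beside 63.4% of the 41 genes (56.1% higher). *Itgam* was higher by 1.50, or 2.84-fold (limma, standard error 0.214, adjusted p = 1.52e-06), and the groups were fully apart, as for 29.3% of the 41 genes. *Lgals3* was higher by 1.36 (limma, standard error 0.322, adjusted p = 0.000794) and *Aif1* by 0.77 (limma, standard error 0.236, adjusted p = 0.00656), which turned to -0.28 with the specific genes as normalizer. *Cd74* was at 0.26 (limma, adjusted p = 0.591), turned to -0.79 (0.0143) with that normalizer, and was at -0.073 without SD rat 1. The shifts of the normalizer were -0.88 for the clodronate-treated and -1.05 for the control liposome-treated rats. Only *Itgam* in control liposome-treated rats and *Lgals3* in clodronate-treated rats passed as higher than in SD rats with every normalizer tried, at 0.46 and 0.82 with the specific genes. With the specific genes, 22 of the 41 genes passed in either direction for clodronate-treated rats and 25 for control liposome-treated rats. Without SD rat 3 the log2 differences were 1.64 for *Itgam*, 1.59 for *Lgals3*, and 0.84 for *Aif1*, and the 3 markers passed.

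Whether a pair of markers changed by the same amount was tested directly with the difference of their Cq values in each rat, in which the reference genes cancel. With 4 markers there are 6 pairs, built from 3 independent differences, and 820 pairs among the 41 genes. In PKD compared to SD rats, *Aif1* fell behind *Itgam* by 0.71 on the log2 scale, or to a ratio of 0.613 (exact permutation test p = 0.00216, the smallest that 6 rats against 6 allow; limma over all 820 pairs, adjusted p = 0.0215). This log2 difference of *Aif1* minus *Itgam* ranged from -0.30 to 0.36 in SD rats (median -0.00096) and from -1.36 to -0.46 in PKD rats (median -0.60), so the groups did not overlap. The share of the 820 pairs with groups that do not overlap was not computed. *Itgam* rose over *Cd74* by 0.93 (exact permutation test p = 0.0152; limma over all pairs, adjusted p = 0.0284), and *Cd74* fell behind *Lgals3* by 1.04 (exact permutation test p = 0.0152; limma over all pairs, adjusted p = 0.0412). *Itgam* and *Lgals3*, the markers that rose, differed by -0.10 (95% interval -0.68 to 0.47, exact permutation test p = 0.764). Of the 6 pairs 3 passed over all pairs, beside 44.1% of the 820 pairs, so unequal change was about as common among the markers as on the card.

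These calls between PKD and SD rats depend on single rats. Without SD rat 3 the difference of *Aif1* minus *Itgam* was -0.77 and passed (limma over all pairs, adjusted p = 0.0148), while the calls of *Itgam* minus *Cd74* (0.83, adjusted p = 0.0566) and *Cd74* minus *Lgals3* (-1.03, adjusted p = 0.0541) were lost and *Aif1* minus *Lgals3* passed (-0.96, adjusted p = 0.0224). *Aif1* minus *Itgam* was lost without PKD rat 3 (-0.57, limma over all pairs, adjusted p = 0.0627). *Itgam* minus *Cd74* was also lost without SD rat 2 (limma over all pairs, adjusted p = 0.0592), SD rat 6 (0.0622), or PKD rat 1 (0.0578). *Cd74* minus *Lgals3* was also lost without SD rat 2 (limma over all pairs, adjusted p = 0.0592), SD rat 4 (0.0558), SD rat 6 (0.133), or any of PKD rats 2, 3, 4, and 5 (0.0570, 0.0643, 0.0590, and 0.107). *Aif1* minus *Lgals3* also passed without PKD rat 1 (0.0252) or PKD rat 6 (0.0315).

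The ratio of *Aif1* to *Itgam* was also below that of SD rats in both liposome groups. The log2 difference of *Aif1* minus *Itgam* was -0.76, -0.92, -1.83, -0.33, and -0.76 in the clodronate-treated rats. It was lower than in SD rats by 0.92 in the mean (exact permutation test p = 0.00433; limma over all pairs, adjusted p = 0.00398). In control liposome-treated rats it ranged from -0.92 to -0.48 with a median of -0.79, and was lower than in SD rats by 0.74 (exact permutation test p = 0.00216; limma over all pairs, adjusted p = 0.0125). Without SD rat 3 the differences were -0.98 and -0.80 and both passed (limma over all pairs, adjusted p = 0.00278 and 0.00866). The 3 PKD groups overlapped in this ratio. Between control liposomes and clodronate it differed by 0.18 (95% interval -0.34 to 0.71, exact permutation test p = 0.593).

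The mean ratios to *Lgals3* were lowest in the clodronate group. *Itgam* minus *Lgals3* was -0.91, -1.27, -1.04, -0.84, and -0.98 in the clodronate-treated rats, with an SD of 0.164. It ranged from -0.16 to 0.60 (median 0.092) with control liposomes, from -0.91 to 0.76 (median -0.18) in PKD, and from -0.47 to 1.10 (median -0.25) in SD rats. Every clodronate-treated rat was thus below every control liposome-treated and every SD rat, with overlap to the PKD rats only. The difference between control liposomes and clodronate was 1.15, or a ratio of 2.22 (standard error 0.296, exact permutation test p = 0.00433; limma over all pairs, adjusted p = 0.0627). For *Aif1* minus *Lgals3* it was 1.34, or a ratio of 2.52 (standard error 0.335, exact permutation test p = 0.00433; limma over all pairs, adjusted p = 0.0627), again with no overlap between the groups. How many of the 820 pairs lie fully apart in this way was not computed. The exact p is the smallest possible with these rats. In the planned exact permutation tests, adjusted over the marker pairs alone, both differences passed (adjusted p = 0.0223), which is not independent evidence. They also passed there when any 1 rat was left out (adjusted p between 0.0343 and 0.0490). In limma over all pairs, chosen after seeing the data, 0% of the 820 pairs passed the adjusted threshold in this comparison. Neither difference in ratio is thus called over all pairs. Both passed when clodronate rat 4 was left out (limma over all pairs, adjusted p = 0.0331 for *Itgam* and 0.0246 for *Aif1* minus *Lgals3*), as did 49 of the 820 pairs.

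*Aif1* minus *Lgals3* was -1.68, -2.20, -2.87, -1.16, and -1.74 in the clodronate-treated rats. It ranged from -1.08 to 0.12 (median -0.61) with control liposomes, from -1.52 to 0.022 (median -0.92) in PKD, and from -0.77 to 0.86 (median -0.0061) in SD rats. Against SD rats the clodronate-treated rats were lower by 1.93, or at a ratio of 0.262 (exact permutation test p = 0.00433; limma over all pairs, adjusted p = 7.12e-05). *Itgam* minus *Lgals3* was lower by 1.01 (limma over all pairs, adjusted p = 0.00696) and *Cd74* minus *Lgals3* by 1.28 (adjusted p = 0.0142). With *Aif1* minus *Itgam*, 4 of the 6 pairs passed, beside 57.2% of the 820 pairs. The differences to *Lgals3* without SD rat 3 were -2.09 for *Aif1*, -1.11 for *Itgam*, and -1.27 for *Cd74*, and these pairs passed (limma over all pairs, adjusted p between 2.56e-05 and 0.0194).

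Against uninjected PKD rats, the clodronate-treated rats were lower in *Itgam* minus *Lgals3* by 0.91 (exact permutation test p = 0.00866; limma over all pairs, adjusted p = 0.118) and in *Aif1* minus *Lgals3* by 1.12 (exact permutation test p = 0.0216; limma over all pairs, adjusted p = 0.0941). None of the 6 pairs passed over all pairs, beside 0.854% of the 820. The control liposome-treated rats did not pass in any of the 6 pairs against uninjected PKD rats either, beside 1.34% of the 820 pairs, and the differences were between -0.07 and 0.31. Against SD rats they passed in 3 pairs, beside 60.6% of the 820. These were *Aif1* minus *Itgam*, *Itgam* minus *Cd74* (higher by 1.25; limma over all pairs, adjusted p = 0.00323), and *Cd74* minus *Lgals3* (lower by 1.11; limma over all pairs, adjusted p = 0.0223). The last 2 differences were 1.14 and -1.10 without SD rat 3 and passed (limma over all pairs, adjusted p = 0.00765 and 0.0309). *Cd74* minus *Lgals3* was lost without SD rat 6 (-0.81, limma over all pairs, adjusted p = 0.0750) or control liposome rat 2 (-0.80, 0.0764).

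**Figure D3:**
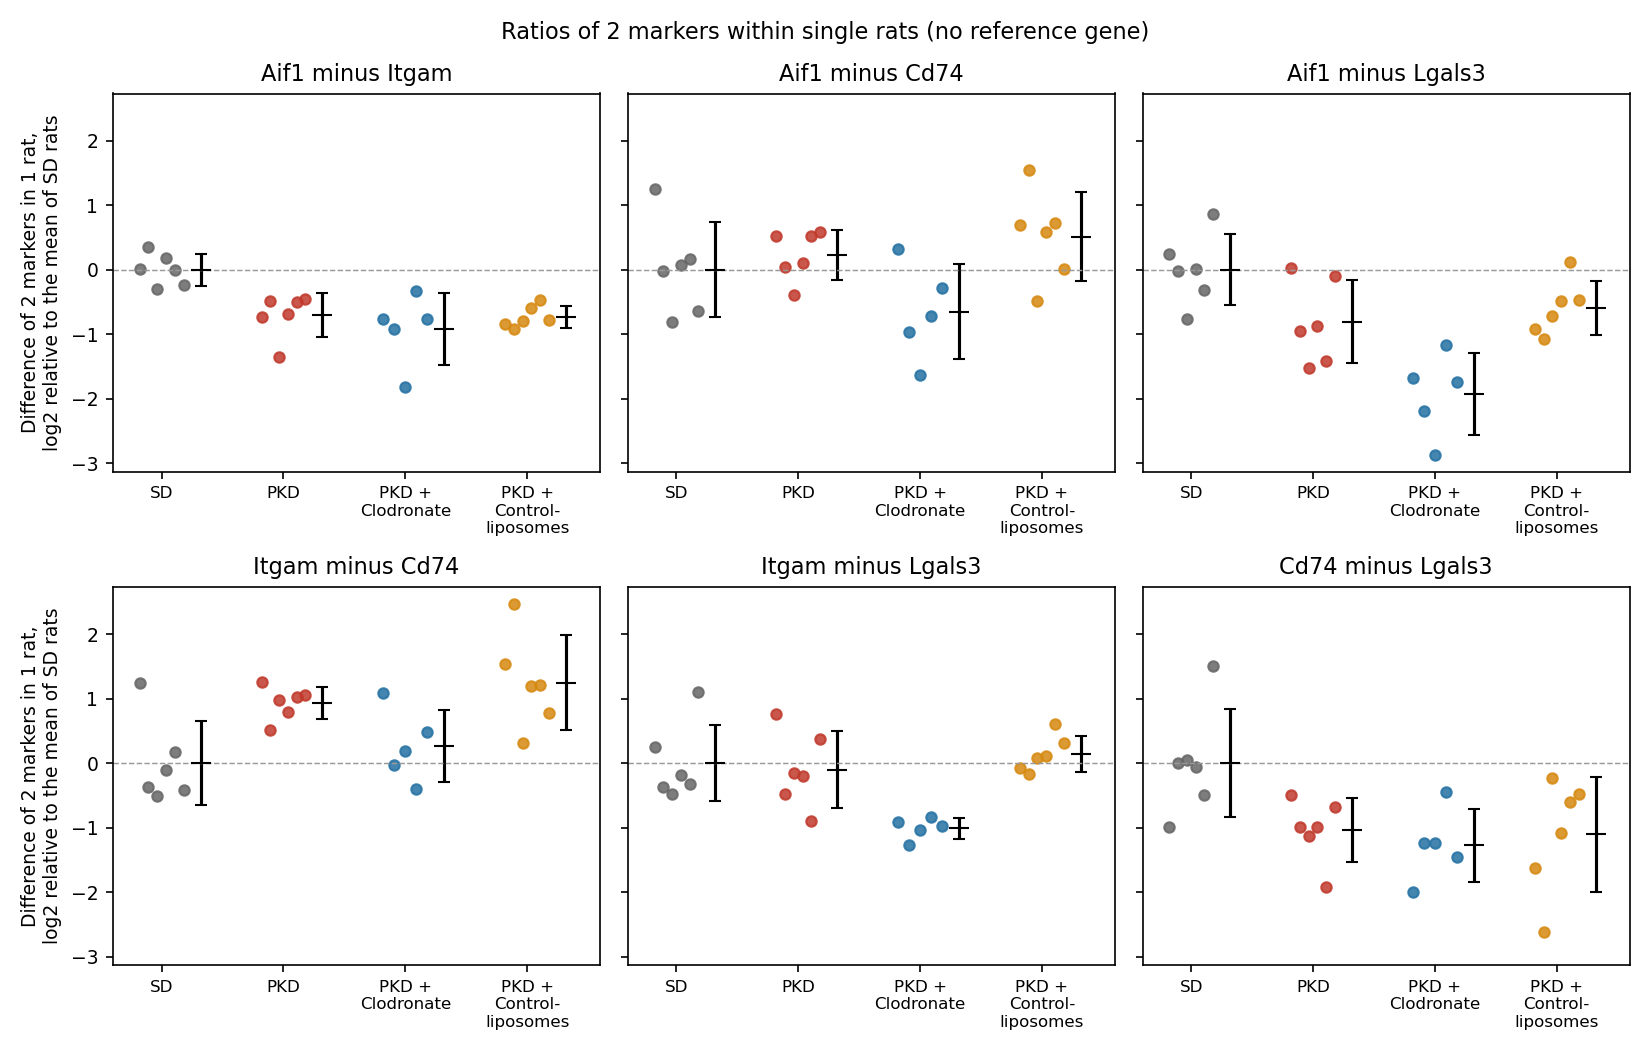
Log2 difference of 2 markers within each rat (points) by group, relative to the mean of SD rats, with mean and SD as bars. Clodronate-treated rats lie lowest for *Itgam* minus *Lgals3* (mean -1.01) and *Aif1* minus *Lgals3* (-1.93), and all 3 PKD groups lie below SD rats for *Aif1* minus *Itgam*.

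Within groups, the question was whether a rat with more of one marker than the other rats of its group also had more of another. After the group means were subtracted, Pearson's r over the 23 rats was positive for all 6 pairs. It was highest for *Itgam* and *Lgals3* (r = 0.59, permutation p = 0.0136, adjusted over the 6 pairs 0.0692; Spearman's rho 0.56, permutation p = 0.0157, adjusted 0.0470). For *Itgam* and *Cd74* r was 0.57 (permutation p = 0.0346, adjusted 0.0692; rho 0.57, permutation p = 0.0242, adjusted 0.0484), and for *Aif1* and *Itgam* 0.49 (permutation p = 0.0249, adjusted 0.0692; rho 0.56, permutation p = 0.0121, adjusted 0.0470). Of the 6 values of r 0 passed after adjustment, while 3 of rho did. The share of all gene pairs that would pass was not computed. Over the other 39 genes with a Cq in every rat, the median r was 0.44 for *Itgam* and 0.52 for *Cd74*. It was 0.38 for *Lgals3* and 0.25 for *Aif1*, so a positive r was not particular to pairs of markers. *Aif1* and *Cd74* (r = 0.40, permutation p = 0.0948, adjusted 0.142; rho 0.45, permutation p = 0.0520, adjusted 0.0781), *Aif1* and *Lgals3* (r = 0.33, permutation p = 0.151, adjusted 0.158; rho 0.38, permutation p = 0.0987, adjusted 0.118), and *Cd74* and *Lgals3* (r = 0.36, permutation p = 0.158, adjusted 0.158; rho 0.30, permutation p = 0.208, adjusted 0.208) did not pass by either measure.

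The positive r over all rats was spread unevenly over the groups. In SD rats r lay between 0.58 and 0.87 for the 6 pairs, and in PKD rats between 0.11 and 0.55. In clodronate-treated rats it was -0.24 for *Aif1* and *Itgam* and -0.22 for *Aif1* and *Lgals3*, against 0.25 to 0.96 for the other pairs. In control liposome-treated rats the pairs of *Cd74* with *Aif1*, *Itgam*, and *Lgals3* had r of -0.19, -0.25, and -0.25, against 0.56 to 0.94 for the others. These values within 1 group rest on 5 or 6 rats and are given as a description.

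Without the 2 rats farthest from the median of the first marker, r was 0.74 for *Aif1* and *Itgam*, 0.56 for *Aif1* and *Cd74*, 0.50 for *Aif1* and *Lgals3*, 0.50 for *Itgam* and *Cd74*, 0.49 for *Itgam* and *Lgals3*, and 0.062 for *Cd74* and *Lgals3*, so that the last relation rests on those rats. The markers of a rat share its reference mean, and r depended on it. Without *B2m* among the reference genes r was 0.48 to 0.72 and all 6 pairs passed. With the mean of the specific genes, r was negative for 5 pairs and 0.36 for *Aif1* and *Itgam*.

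**Figure D4:**
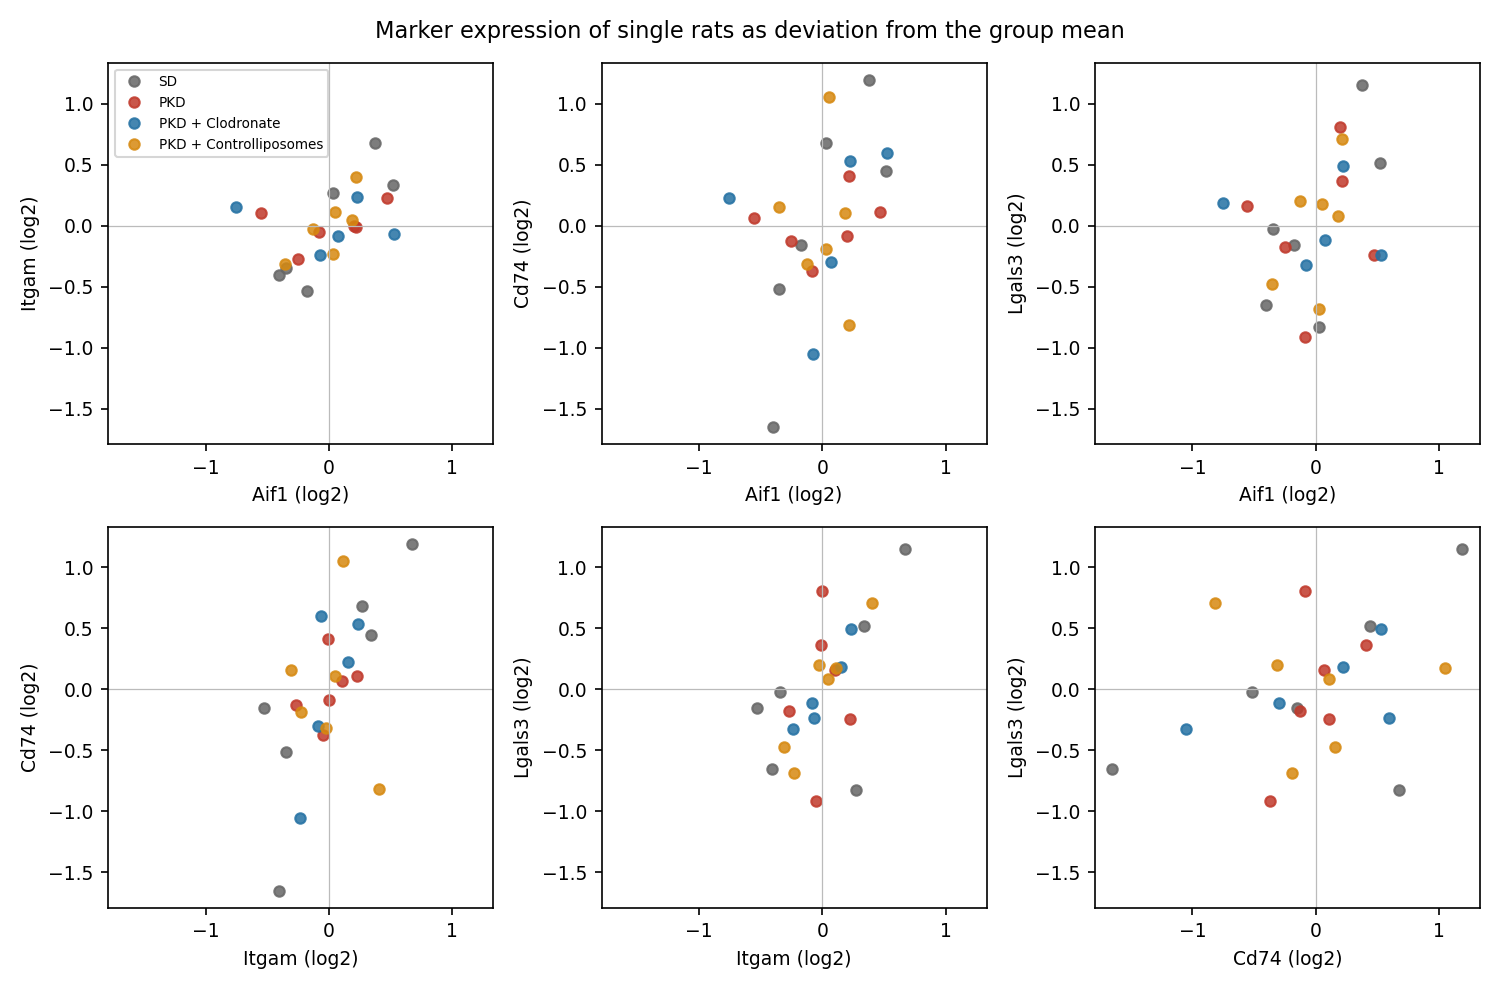
Expression of 2 markers in each of 23 rats (points, colored by group) as deviation from the group mean, in log2 units, for the 6 pairs of markers. The pairs with *Itgam* have r between 0.49 and 0.59, and for *Cd74* and *Lgals3* r is 0.36, which falls to 0.062 without 2 rats.

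The genes nearest to each marker within groups differed between markers. They were taken from the other 39 specific genes with a Cq in every rat and are a description, since all genes of a rat share the reference mean. *Aif1* was nearest to *Fcgr3a*, an activating Fc receptor of phagocytes (r = 0.53), *Il18*, a cytokine released through the inflammasome (0.50), and *Itgam* (0.49), with a median of 0.25 over the 39 genes. *Itgam* was nearest to *Fgf2*, a growth factor that supports photoreceptors (0.77), the complement component *C3* (0.76), and *Gfap*, the intermediate filament of astrocytes and reactive Müller glia (0.76), with a median of 0.44. *Cd74* was nearest to *Icam1*, the leukocyte adhesion molecule of endothelium (0.84), *Pgf*, a growth factor of the VEGF family (0.82), and the C5a receptor *C5ar1* (0.82), with a median of 0.52. *Lgals3* was nearest to *C1s*, a protease of the classical complement pathway (0.73), *Fcgr3a* (0.68), and *Arg1*, the arginase of alternatively activated macrophages (0.66), with a median of 0.38. Of the other 3 markers, *Itgam* was the only one among the 3 nearest genes of any marker, for *Aif1*.

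The card holds 8 further genes known from phagocytes, which are *Tyrobp*, *Trem2*, *Fcgr2a*, *Fcgr3a*, *C5ar1*, *C5ar2*, *Mrc1*, and *Stab1*. In PKD compared to SD rats 1 of the 8 passed, beside 36.6% of the 41 genes tested on the card. It was *Tyrobp*, the signaling adaptor of Trem2 and complement receptor 3, higher by 0.85 (limma, standard error 0.255, adjusted p = 0.00927). The median log2 difference was 0.27 over the 8 genes, 0.48 over the 4 markers, and 0.44 over the 41 genes. The clodronate-treated rats had 0 of 8 past the threshold against PKD rats, with differences from -0.35 to 0.47 and 0 with an unadjusted p under 0.05. Control liposomes against clodronate also gave 0 of 8, with differences from -0.34 to 0.93. There 3 genes had an unadjusted p under 0.05, *Trem2* (0.93), *Fcgr3a* (0.89), and *C5ar2* (0.83), each with a limma adjusted p of 0.147. Control liposomes against PKD rats gave 0 of 8 as well, with 1 gene under 0.05 before adjustment. Of the 41 genes, 0% passed for clodronate-treated against PKD rats. The share was 4.88% for control liposomes against clodronate and 2.44% for control liposomes against PKD rats. Before adjustment 5, 5, and 7 of the 41 genes were under 0.05 in the same order. Against SD rats, *Tyrobp* passed with clodronate (0.94; limma, adjusted p = 0.00468), and *Tyrobp* (1.27; limma, adjusted p = 0.000147), *Fcgr3a* (1.30; limma, adjusted p = 0.00159), and *C5ar2* (0.71; limma, adjusted p = 0.0435) passed with control liposomes. The *C5ar2* call was lost in exact permutation tests and without any of SD rats 1, 5, and 6 and control liposome rats 1, 2, 3, and 4 (limma, adjusted p between 0.0586 and 0.116). *Fcgr3a* passed in PKD rats without SD rat 4 (0.88, limma, adjusted p = 0.0239), and *Trem2* between the liposome groups without clodronate rat 4 (1.24, limma, adjusted p = 0.0377). The counts against SD rats were the same 1, 1, and 3 of 8 without SD rat 3. With all rats, 51.2% of the 41 genes passed against SD rats with clodronate and 63.4% with control liposomes. The 8 genes were thus called less often than the card in each comparison against SD rats.

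Genes of other cell types were also compared with SD rats. They were *Gfap*, *Serpina3n*, *Lcn2*, and *Timp1*, which reactive glia express, *Icam1* of endothelium, and *Fcer2* of B cells. Of these 6, 4 rose in PKD compared to SD rats, beside 34.1% of the 41 genes tested on the card. *Fcer2* went the other way, with -1.34 (limma, adjusted p = 0.100). *Gfap* was higher by 2.62 (limma, standard error 0.300, adjusted p = 4.61e-08), with -0.84 to 1.80 in SD and 2.49 to 2.83 in PKD rats. *Gfap*, *Serpina3n*, *Lcn2*, and *Icam1* were higher than in SD rats in all 3 PKD groups, and kept these calls in limma when any 1 rat was left out. Of the 41 genes, 46.3% were higher than in SD rats with clodronate and 56.1% with control liposomes. *Timp1* passed in control liposome-treated rats (1.53, limma, adjusted p = 0.00194) and in clodronate-treated rats (1.13, limma, adjusted p = 0.0271). The latter call was lost in exact permutation tests (adjusted p = 0.123) and without SD rat 1 or 2 or clodronate rat 2, 4, or 5 (limma, adjusted p between 0.0512 and 0.0939). *Timp1* also passed in PKD rats without SD rat 3 (1.11, limma adjusted p = 0.00771), and the other counts were the same. *Fcer2* was at -1.66 in clodronate-treated rats (limma adjusted p = 0.0366, and 0.0813 in exact permutation tests), with 3.43 in SD rat 6 and -1.78 to -0.0027 in the other SD rats that had a Cq. Without SD rat 6 it was at -0.80 (limma, adjusted p = 0.170). The *Fcer2* call was also lost without SD rat 4 or clodronate rat 1, 2, 3, or 4 (limma, adjusted p between 0.0512 and 0.0712), and it passed as lower in PKD and control liposome-treated rats without SD rat 5 (-1.78 and -1.47, limma adjusted p = 0.0309 and 0.0448). Between the 3 PKD groups 0 of 6 passed in each comparison in limma, beside at most 4.88% of the 41 genes, and also 0 in limma before adjustment. For control liposomes against PKD rats, *Gfap* (0.33) and *Timp1* (0.81) had an exact permutation test p of 0.0260 before adjustment. After adjustment it was 0.124 for both. The part of glial or endothelial RNA in the *Itgam* and *Lgals3* differences to SD rats was not tested.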

How the data were processed

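Per the labels, retinal RNA was reverse transcribed, pre-amplified for 14 cycles and measured on TaqMan cards in a Viia7 thermocycler with at most 40 cycles. The authors deposited Cq values (PCR cycles, an other unit than counts or intensities) before normalization. A second deposited file holds the authors' own fold changes between groups and was not used. Wells were named by matching Cq values to the study's supplementary list by gene (48 of 48 wells, tolerance 0.001 cycles), which also gives the group of 23 columns. A further 11 columns were not used, since that list names no group for them. Rats are numbered in the order of the deposited columns within a group, and p-values measure the spread between rats.

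Empty wells (57 of 1104) were treated as missing. A gene was tested with at least 3 Cq values per group, which held for 41 of 44 specific genes. The 4 groups entered 1 fit in limma (version 3.58.1, with statmod 1.5.0 and R 4.3.3) with eBayes, two-sided p, Benjamini-Hochberg adjustment over the 41 genes and a threshold of 0.05. Exact permutation tests compared group means, with a two-sided p that doubles the smaller tail, as scipy 1.17.1 does. Differences of 2 markers within a rat were tested in the same way and, chosen after seeing the data, with limma over all 820 gene pairs, also without each rat. Correlations used group-centred values and 100000 permutations within groups. Only the limma comparison of PKD with SD rats was tried on simulated data, in which genes varied independently. The permutation tests, the tests of pairs and the correlations were not.

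The members and gene lists were chosen with earlier results of these data known. The genes named are the 4 markers, the 3 nearest genes of each by group-centred correlation, 8 other phagocyte genes, 6 genes of other cell types and the reference genes. Alternatives were other normalizers, treatments of empty or late wells, other fits and tests, and leaving out each rat. The motif search and sequences used the RefSeq promoter table (build GRCr8), in which 2 of the 4 markers have an entry. Figures and permutation tests were made in Python 3.11.15 (matplotlib 3.10.9).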

Additional observations from a re-analysis of the deposited data

How the results depend on the processing

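Over the 4 markers and 6 comparisons, 259 of 288 results with other settings and 258 of 276 with 1 rat left out kept their direction and their side of the threshold. These counts include results that never passed, and settings for empty or late wells, of which the markers had none. With 1 rat left out, control liposomes against clodronate kept the *Itgam* call in 4 of 11 fits and that of *Aif1* in 7 of 11. The *Lgals3* call between PKD and SD rats was kept in 8 of 12, and the other calls in every such fit. The number of markers past the threshold was 1 for PKD against SD rats in a fit of these groups alone and in exact permutation tests, and 1 for clodronate-treated against SD rats in a fit of these groups alone. For control liposomes against clodronate it was 0 without *B2m*, 0 in exact permutation tests and 1 without *Mrpl19*. For control liposomes against PKD rats it was 1 with empty wells set to 40, with the mean of the specific genes, without 18S, in an ordinary linear model and with array weights, and 2 in a fit of these groups alone and in exact permutation tests. With 1 rat left out it was 1 to 2 for PKD against SD rats and 0 to 2 for control liposomes against clodronate.

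With the mean of the specific genes as normalizer, the sign turned for *Aif1* in PKD (-0.70) and control liposome-treated rats (-0.28), for *Itgam* in clodronate-treated rats (-0.19), and for *Cd74* in clodronate-treated (-0.45) and control liposome-treated rats (-0.79), all against SD rats. Without *B2m* it turned for *Cd74* in PKD rats (0.068) and *Aif1* in clodronate-treated rats (0.062). With 1 rat left out, *Cd74* lay between -0.43 and 0.13 in PKD and between -0.073 and 0.49 in control liposome-treated rats against SD rats. The shift of that normalizer is the change of its own mean by construction, and the other causes were not tested.

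For pairs of markers, exact tests adjusted over the 36 tests of these pairs alone, which is not independent evidence, gave 3 pairs for PKD against SD rats, 1 for clodronate-treated against PKD rats, 2 for control liposomes against clodronate, 4 and 2 for clodronate and control liposomes against SD rats. Limma on the same pairs gave 3 for clodronate-treated against PKD rats and 4 for control liposomes against clodronate, and limma over all pairs gave 0 for both. With 1 rat left out, exact tests gave 1 to 3 for PKD against SD rats, 0 to 3 for clodronate-treated against PKD rats, 2 to 4 for control liposomes against clodronate, and 1 to 3 for control liposomes against SD rats, while limma over all pairs, chosen after seeing the data, gave 1 to 4, 0, 0 to 2, and 2 to 3 in the same order. Of the correlations, 6 passed without *B2m* and 1 without 18S, and 0 to 3 with 1 rat left out. With the mean of the specific genes, r was -0.19 for *Aif1* and *Cd74*, -0.080 for *Aif1* and *Lgals3*, -0.38 for *Itgam* and *Cd74*, -0.018 for *Itgam* and *Lgals3*, and -0.34 for *Cd74* and *Lgals3*. That mean includes the markers, which pulls r down by construction.

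No paired analysis was possible because the Cq columns carry no replicate number of the labels. The labels give no batch. No well was repeated, so 5 or 6 rats per group limit the precision, and 5 rats against 6 cannot give an exact p below 0.00433. In 16 groups of marker values searched for a rat far from the others, 0 were found.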
